A study of Mus musculus with 6 samples.

Results

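The 9 genes Mt1, Mt2, Mtf1, Slc30a1, Slc30a5, Slc30a7, Slc39a1, Slc39a6 and Slc39a10 make up the metallothionein and zinc handling group described here, out of 16825 genes tested. They were taken by gene symbol from the array annotation, each from 1 transcript cluster of its own and none from a cluster shared with another gene. All 9 passed the filter on dim signals, which asks for a value at or above the array median on at least 3 of the 6 arrays. The group was chosen by function with the measured log2 differences between Keap1_KO and WT already known, so those differences are given for these genes as a description without a test.

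T cells positive for CD4 and CD25, labelled regulatory T cells (Treg cells), were separated magnetically from the spleens of untreated mice. Keap1_KO cells came from mice that combine a Vav-driven Cre recombinase with floxed Keap1 alleles and are labelled Keap1 -/- (3 arrays, B, C and D). WT cells came from mice labelled Keap1 +/+ (3 arrays, A, D and F). The sample labels write the cells as CD4+, whereas the series title writes CD4-, and the conflict was not settled. All mice are labelled male and C57BL/6, and their age is given as 10 to 12 months in one label field and as 6 to 10 weeks in another. Vav-driven Cre acts in blood-forming cells in general, so the deletion is not limited to T cells, and the labels do not say whether the WT mice carried Cre. Whether every array stands for its own animal is not stated, so each measure of error is the spread between arrays, which may be technical. Fewer cells of a type and less RNA per cell cannot be told apart in such bulk samples.

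Metallothioneins are small cysteine-rich proteins that hold zinc and copper in the cytosol and also react with oxidants. The transcription factor MTF-1, product of Mtf1, senses free zinc and switches on metallothionein genes through short promoter sequences called metal response elements (MREs). ZnT proteins (Slc30a genes) move zinc out of the cytosol, across the cell surface or into organelles, and ZIP proteins (Slc39a genes) move it in. KEAP1 holds down the transcription factor NRF2 (gene Nfe2l2), which acts through antioxidant response elements (AREs).

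The arrays were first checked for the deleted gene and the cell type. Keap1 read 4.87, 4.89 and 4.70 in Keap1_KO B, C and D and 5.30, 5.41 and 5.77 in WT A, D and F, so every Keap1_KO array lay below every WT array (difference -0.67, exact two-sided permutation p = 0.1, the smallest that 3 arrays against 3 allow). Keap1 did not pass the filter, and probes outside the floxed part would not report its loss. Nqo1, a quinone reductase gene under NRF2, averaged 8.40 ± 0.80 in Keap1_KO and 4.80 ± 0.20 in WT (SD, n = 3 each). Of the 10 Treg and 10 CD4 T cell markers listed, 8 and 8 were matched to a cluster, and all of these passed the filter. Foxp3 lies on a cluster shared with another symbol and is not given. Over all genes, limma called 0.0% at an adjusted p under 0.05 (0 of 16825, Benjamini-Hochberg), while 10.3% had an unadjusted p under 0.05.

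Mt1 and Mt2 read higher on every Keap1_KO array than on any WT array. Mt1 read 8.06, 8.38 and 9.26 (log2, as deposited) in Keap1_KO B, C and D, against 6.70, 6.89 and 6.94 in WT A, D and F. The lowest Keap1_KO value of Mt1 lay 1.12 above the highest WT value. Mt1 thus averaged 8.57 ± 0.62 in Keap1_KO and 6.84 ± 0.13 in WT (SD, n = 3 each), a difference of 1.72 with a standard error (SE) of 0.32, or 3.3-fold on the deposited scale. Keap1_KO D was the highest array and the 3 WT arrays lay close together, with a range of 0.24 against 1.20 among the Keap1_KO arrays. Within its array, Mt1 stood on average at the 83.4th percentile of all clusters in Keap1_KO and at the 70.9th in WT.

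Mt2, the neighbouring gene for the second widely expressed metallothionein, had the same order of the Keap1_KO arrays and a smaller difference. It read 8.56, 8.71 and 9.34 in Keap1_KO B, C and D, against 7.77, 7.87 and 8.10 in WT A, D and F. The genotypes did not overlap, and the gap between them was 0.46. The means were 8.87 ± 0.42 in Keap1_KO and 7.91 ± 0.17 in WT (SD, n = 3 each), a difference of 0.96 (SE 0.25), or 1.94-fold. The 2 genes encode closely similar proteins, and cross-hybridisation between their probes was not tested. Ranked from the highest difference down, Mt1 was number 236 and Mt2 number 1244 of the 16825 genes.

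**Figure D1:**
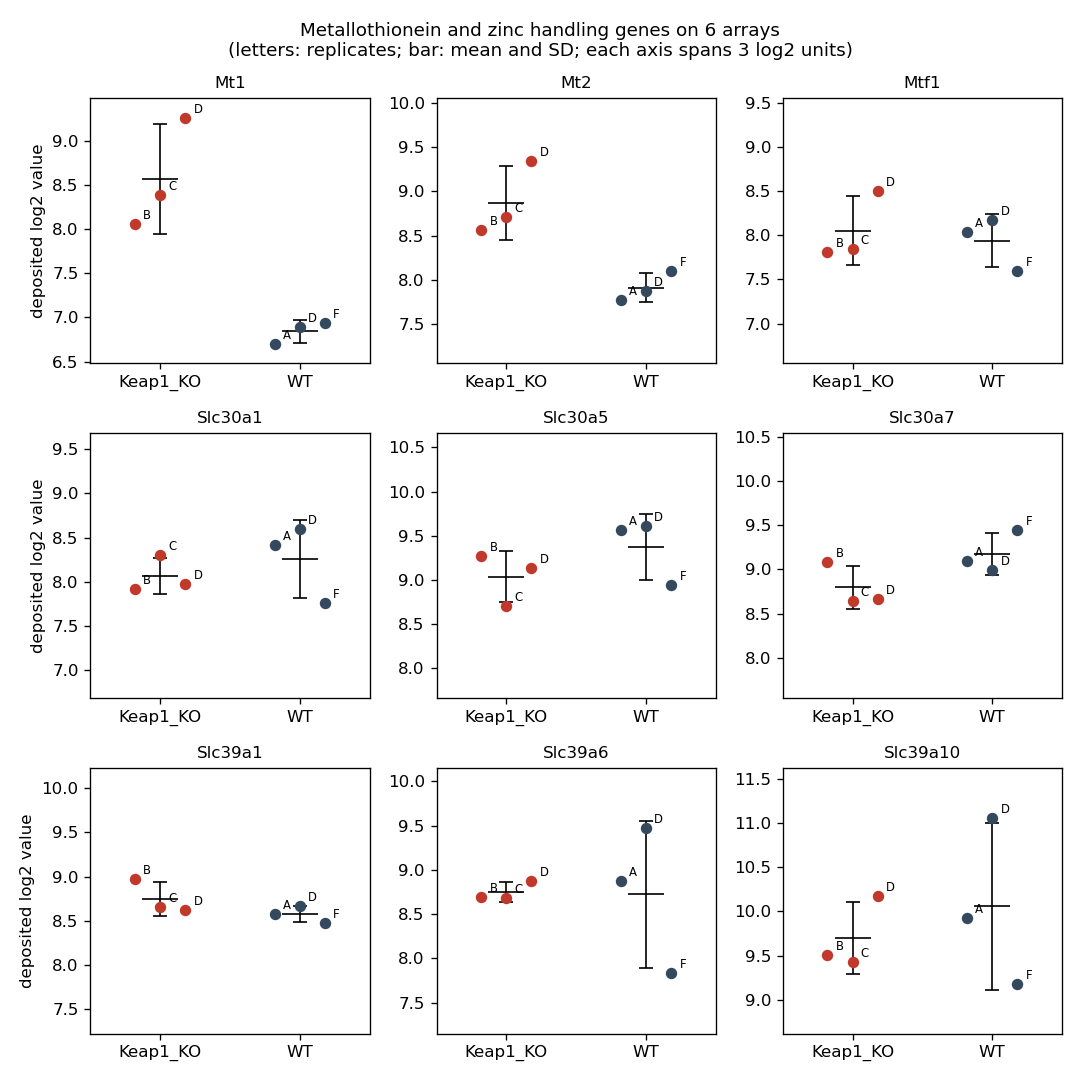
Deposited log2 values of the 9 genes on the 6 arrays, Keap1_KO left of WT, with the replicate letter at each point and a bar for the mean and SD (n = 3). All Keap1_KO points lie above all WT points for Mt1 and Mt2, with gaps of 1.12 and 0.46, and the genotypes overlap for the other genes.

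The promoters of both genes and of Slc30a1, another known target of MTF-1, are shown because matches to the MRE core can be read in them. They are the RefSeq windows of the GRCm38.p6 build, from 250 bases before to 50 bases after the annotated gene start, on the plus strand, at chr8:94178839-94179138 (Mt1), chr8:94172368-94172667 (Mt2) and chr1:191906531-191906830 (Slc30a1). Capitals mark every match to TGCACNC or TGCGCNC on either strand.
Mt1 promoter: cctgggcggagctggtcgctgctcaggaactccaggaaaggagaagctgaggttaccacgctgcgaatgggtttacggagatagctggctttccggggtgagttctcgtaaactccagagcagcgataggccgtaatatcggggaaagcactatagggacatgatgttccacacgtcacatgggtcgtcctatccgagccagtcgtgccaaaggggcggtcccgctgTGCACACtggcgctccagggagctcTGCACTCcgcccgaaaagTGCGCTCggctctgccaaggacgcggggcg
Mt2 promoter: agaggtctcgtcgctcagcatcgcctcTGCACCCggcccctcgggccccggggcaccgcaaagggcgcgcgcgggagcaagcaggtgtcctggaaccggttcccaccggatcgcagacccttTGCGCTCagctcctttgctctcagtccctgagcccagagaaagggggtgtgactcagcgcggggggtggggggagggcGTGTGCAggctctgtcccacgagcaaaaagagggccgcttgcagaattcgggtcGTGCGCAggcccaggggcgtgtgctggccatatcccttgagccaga
Slc30a1 promoter: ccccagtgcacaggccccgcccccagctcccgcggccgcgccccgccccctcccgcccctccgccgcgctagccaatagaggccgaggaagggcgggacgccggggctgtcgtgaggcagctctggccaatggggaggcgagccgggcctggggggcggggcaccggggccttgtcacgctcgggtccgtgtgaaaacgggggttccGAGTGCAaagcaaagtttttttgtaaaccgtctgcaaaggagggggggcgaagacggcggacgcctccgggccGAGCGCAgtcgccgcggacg

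The Mt1 window held 3 matches to the MRE core, at bases -23 to -17, 3 to 9 and 21 to 27 from the gene start. Base 1 is the start annotated by RefSeq, and there is no base 0. Where transcription starts was not tested, so a match after base 1 need not be transcribed. The counts compare windows and not whole promoters. The Mt2 window held 4 matches and the Slc30a1 window 2. Among 32851 promoter windows of the same length, 25.7% held at least 1 match, 7.11% at least 2, 1.97% at least 3 and 0.517% at least 4. The window of Slc30a4, whose genotypes overlapped, also held 3 matches. So did that of Slc30a10, where 2 of the matches overlap on opposite strands. This gene did not pass the filter and had every Keap1_KO array below every WT array (difference -0.32). Of the 9 genes, 8 were matched in the promoter table, and 4 of these had at least 1 match. The ARE core was searched as TGACNNNGC on both strands and occurred in 12.4% of all windows. It matched once in Mt2 (bases -79 to -71) and once each in Slc30a1, Slc30a5 and Slc39a1. The Mt1 window held no match, but bases outside the 300-base windows were not searched. A motif absent from a window may thus lie just beside it. No match in the Mt2 window overlapped another.

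**Figure D2:**
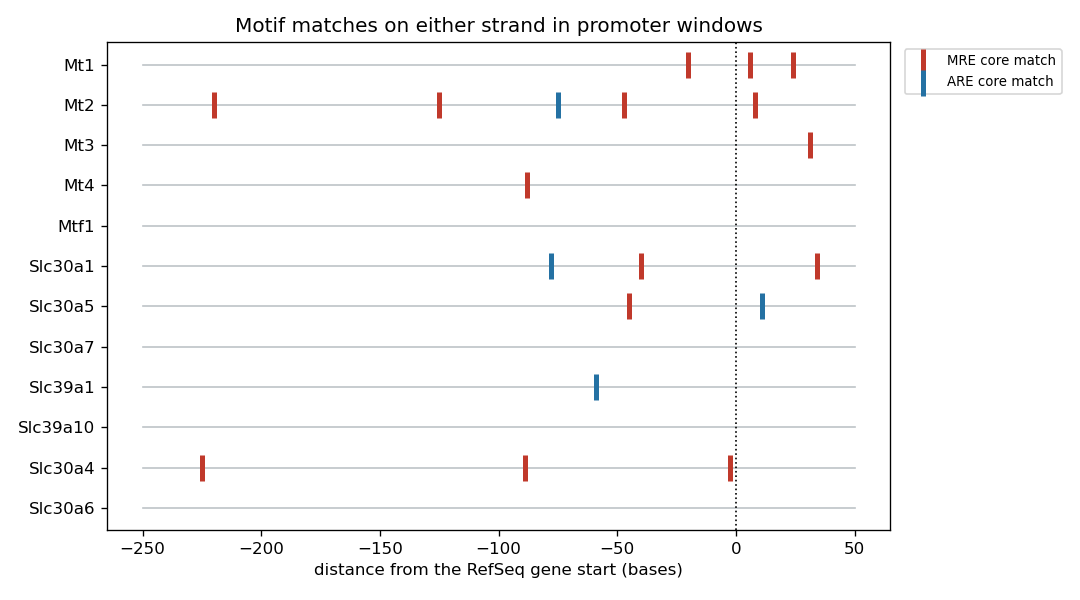
Matches to the MRE core and the ARE core on either strand by distance in bases from the RefSeq gene start, for promoter windows of the group and of 4 further zinc genes. Mt1 and Mt2 hold 3 and 4 MRE core matches, Slc30a4 also holds 3, and the windows of Mtf1, Slc30a7, Slc39a10 and Slc30a6 hold none of either motif.

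The other metallothionein genes of the mouse lie next to Mt1 and Mt2 on chromosome 8, in the order Mt4, Mt3, Mt2, Mt1. Mt3, known mainly from brain, read 6.32, 5.93 and 5.87 in Keap1_KO B, C and D and 6.16, 5.94 and 6.16 in WT A, D and F. Its difference was -0.04 (SE 0.19, limma adjusted p = 0.926), and the genotypes overlapped. Mt4, known from stratified epithelium, did not pass the filter, at 5.13 ± 0.32 in Keap1_KO and 5.30 ± 0.14 in WT (SD, n = 3 each). On the array of highest Mt1 and Mt2, Keap1_KO D, both Mt3 (5.87) and Mt4 (4.80) had their lowest value. The nearest genes with a cluster outside the 4 metallothionein genes, Bbs2 and Nup93, differed by 0.38 and 0.44 between Keap1_KO and WT.

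**Figure D3:**
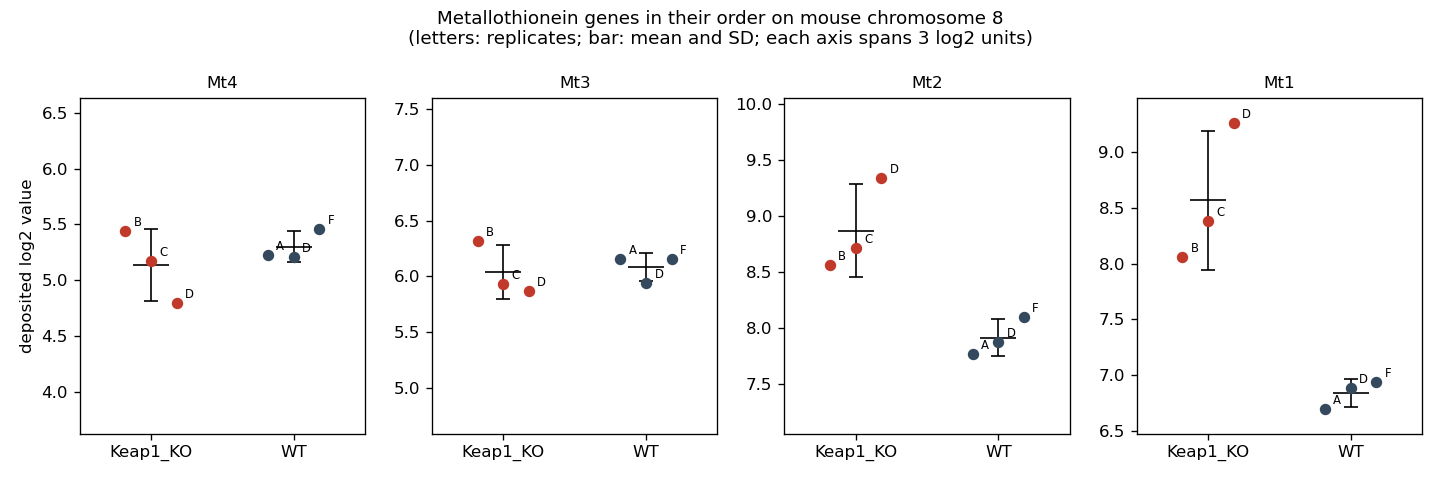
Deposited log2 values of the 4 metallothionein genes in chromosomal order, Keap1_KO left of WT, with replicate letters and a bar for the mean and SD (n = 3). Mt2 and Mt1 separate the genotypes, and Mt4 and Mt3 overlap. Heights are not comparable between genes.

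Mtf1, the gene of the zinc sensor, did not separate the genotypes. It read 7.81, 7.84 and 8.50 in Keap1_KO B, C and D and 8.04, 8.17 and 7.60 in WT A, D and F. Keap1_KO D was the highest array and WT F the lowest. The difference was 0.11 (SE 0.27), and it was -0.11 without Keap1_KO D and -0.06 without WT F.

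The 3 exporter genes of the group had lower means in Keap1_KO, with overlapping arrays in each. Slc30a1 encodes ZnT1, the exporter of the cell surface. It read 7.92, 8.30 and 7.97 in Keap1_KO B, C and D and 8.42, 8.60 and 7.76 in WT A, D and F, a difference of -0.20 (SE 0.26). WT F was below all Keap1_KO arrays and the other two WT arrays were above them, and the difference was -0.03 without WT D and -0.45 without WT F. Slc30a5 encodes ZnT5, which pairs with ZnT6 in the early secretory pathway. It averaged 9.04 ± 0.29 in Keap1_KO and 9.38 ± 0.38 in WT (SD, n = 3 each), a difference of -0.34 (SE 0.26), which was -0.18 without Keap1_KO C and -0.56 without WT F. Slc30a7 encodes ZnT7 of the Golgi apparatus. It read 9.08, 8.64 and 8.67 in Keap1_KO B, C and D and 9.09, 8.99 and 9.44 in WT A, D and F. Keap1_KO B reached into the WT range of Slc30a7, and the difference was -0.37 (SE 0.21), -0.52 without Keap1_KO B and -0.24 without WT F.

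The 3 importer genes of the group differed less between the genotype means than among the WT arrays. Slc39a1 encodes ZIP1 of the cell surface and had a small spread, at 8.75 ± 0.19 in Keap1_KO and 8.57 ± 0.10 in WT (SD, n = 3 each). Its difference of 0.17 (SE 0.17) was 0.06 without Keap1_KO B. Slc39a6 and Slc39a10 encode ZIP6 and ZIP10, 2 closely related importers that can form one complex. Slc39a6 read 8.69, 8.68 and 8.88 in Keap1_KO B, C and D and 8.87, 9.47 and 7.83 in WT A, D and F. Its WT arrays ranged over 1.65 and its Keap1_KO arrays over 0.20, with WT D at the top and WT F at the bottom. The difference was 0.02 (SE 0.41), -0.43 without WT F, 0.40 without WT D, -0.04 without Keap1_KO D and -0.09 with array weights. Slc39a10 read 9.51, 9.43 and 10.17 in Keap1_KO B, C and D and 9.93, 11.06 and 9.18 in WT A, D and F. WT D was again highest and WT F lowest, and the range was 0.73 in Keap1_KO and 1.88 in WT. The difference was -0.36 (SE 0.49), -0.80 without WT F and 0.14 without WT D. The spread of Slc39a10 within genotypes exceeded that of 89.0% of the genes tested by rank. WT D was the highest of the 6 arrays for 4 of the 6 transporter genes, and WT F was the lowest for 4.

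Of the list as a whole, 2 of the 9 genes separated the genotypes, Mt1 and Mt2, and both were higher in Keap1_KO. Over all genes, 9.11% had every Keap1_KO array above every WT array and 4.96% had every one below. The median difference of the 9 genes was 0.02, against 0.06 over all genes tested, and 5 had higher and 4 lower means in Keap1_KO. Over all genes tested, 9501 had higher and 7324 lower means. At an adjusted p under 0.05, limma called 0 of the 9, and 2 had an unadjusted p under 0.05, against 10.3% of all genes. With array weights, which weight WT A most and Keap1_KO B least, limma called 2 of the 9 (Mt1 and Mt2) and 11.2% of all genes. Without Keap1_KO B it called 1 of the 9 (Mt1, difference 1.97) and 3.38% of all genes. Since these differences were known when the genes were chosen, nothing is drawn from these counts.

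The zinc genes outside the group were listed by family and not by their values. Of 22 such genes, 16 passed the filter, and limma called none of them at an adjusted p under 0.05. An unadjusted p under 0.05 was reached by 2 of the 16, against 10.3% of all genes. In 2 of the 16 (Slc30a6 and Slc39a7), every Keap1_KO array lay above every WT array, against 9.11% of all genes, and in none below, against 4.96%. With each array centred on its median, Slc39a3 and Slc39a13 did so as well, 4 of the 16 in all. Over all 16825 genes, 2463 had genotypes without overlap in either direction after that centring. After a repeated quantile normalization 0 of the 16 did, against 1922 of all genes in either direction. The median difference of the 16 was -0.02. The 6 ZnT genes tested include Slc30a1, Slc30a5 and Slc30a7 of the group, which were chosen with their differences known. Of these 6, 5 had lower means in Keap1_KO, and the exception was Slc30a6. Outside the group, Slc30a4 and Slc30a9 had lower means and Slc30a6 a higher one. The 13 ZIP genes tested likewise include Slc39a1, Slc39a6 and Slc39a10 of the group. Of these 13, 8 had higher and 5 lower means, and with each array centred on its median 10 and 3 did. That centring also moved the median difference of all genes, to 0.17. After repeated quantile normalization, neither Slc30a6 nor Slc39a7, the 2 genes without overlap, separated the genotypes. The accessory genes Zng1 and Tmem163, for a zinc metallochaperone and a zinc efflux transporter, differed by 0.12 (SE 0.26) and -0.05 (SE 0.15).

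Slc30a6 encodes ZnT6, the partner of ZnT5. It read 7.95, 8.60 and 8.71 in Keap1_KO B, C and D and 7.85, 7.68 and 7.41 in WT A, D and F. The genotypes did not overlap, by a gap of 0.10, and the difference was 0.78 (SE 0.25, limma adjusted p = 0.476, from 0.0448 with array weights to 0.900 over 12 alternatives). The partner gene Slc30a5 had a difference of -0.34. The vesicular exporter gene Slc30a4 and the mitochondrial exporter gene Slc30a9 had differences of -0.59 (SE 0.40) and -0.38 (SE 0.28), with overlapping arrays and limma adjusted p of 0.534 and 0.565.

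Slc39a4 encodes ZIP4, the importer best known for zinc uptake in the intestine. It read 6.61, 8.13 and 8.15 in Keap1_KO B, C and D and 6.48, 6.67 and 5.93 in WT A, D and F. Keap1_KO C and D stood above all other arrays, and Keap1_KO B lay inside the WT range. The difference was 1.27 (SE 0.46, limma adjusted p = 0.476), and it was 1.78 without Keap1_KO B, where it passed (adjusted p = 0.0415). With array weights it also passed, at 1.53 (adjusted p = 0.0408), in a range from 0.0408 to 0.900 over 12 alternatives. Slc39a7 encodes ZIP7, which releases zinc from the endoplasmic reticulum. It averaged 7.50 ± 0.47 in Keap1_KO and 6.74 ± 0.41 in WT (SD, n = 3 each), a difference of 0.76 (SE 0.32, limma adjusted p = 0.476). Its lowest Keap1_KO array (7.12, B) and highest WT array (7.11, D) were 0.01 apart, and the difference was 1.13 with array weights and 0.50 without Keap1_KO D. Slc39a2 was dim and had a difference of -0.28 (SE 0.17, adjusted p = 0.515).

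**Figure D4:**
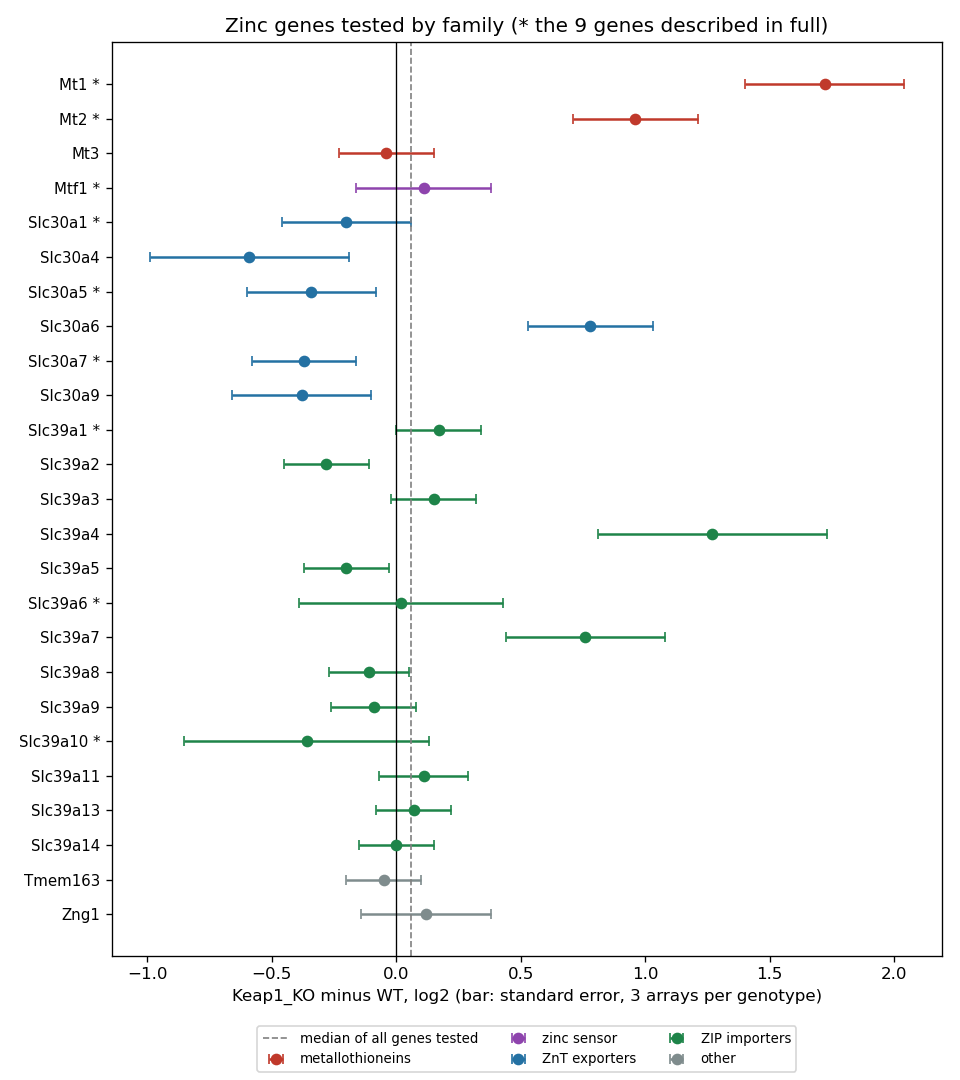
Difference Keap1_KO minus WT on the log2 scale for the 25 zinc genes that passed the filter, with bars of 1 standard error (3 arrays per genotype) and a dashed line at the median of all genes tested (0.06). Mt1 (1.72), Slc39a4 (1.27), Mt2 (0.96), Slc30a6 (0.78) and Slc39a7 (0.76) lie farthest to the right, and Slc30a4 (-0.59) farthest to the left.

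Markers of other cells also differed between arrays. The 15 neutrophil markers, taken as the mean deviation from each gene's average, stood at -1.02, 0.56 and 2.49 in Keap1_KO B, C and D and at -1.13, -0.08 and -0.82 in WT A, D and F. Their summed log2 level ran from 110.6 to 163.3 in Keap1_KO and from 109.0 to 124.8 in WT, and 13 of the 15 had a higher mean in Keap1_KO. Keap1_KO D was thus highest both in these markers and in Mt1 and Mt2. On Keap1_KO B these markers were at -1.02 and Mt1 read 8.06. Of the 14 that passed the filter, only Mpo separated the genotypes, higher in Keap1_KO, as did 9.11% of all genes. Named after its values were seen, Mpo read 6.90 on Keap1_KO B and up to 6.35 in WT. Without Keap1_KO D, the difference was 1.38 for Mt1 and 0.72 for Mt2. The part of these cells in the values of Mt1 and Mt2 was not tested. Macrophage markers ran from 57.0 to 63.2 in Keap1_KO and from 55.0 to 60.6 in WT, summed over 10 genes, 5 of which had a higher mean in Keap1_KO, with Fcgr1, Mertk, C1qa and Cd14 below the array median on all 6 arrays.

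The mean deviation of the 8 matched NK cell markers was -0.23, -0.31 and 1.58 in Keap1_KO B, C and D and -0.27, 0.86 and -1.64 in WT A, D and F. Their summed level ran from 68.0 to 83.1 in Keap1_KO and from 57.3 to 77.3 in WT, and 7 of the 8 had a higher mean in Keap1_KO. Among the WT arrays these markers were highest in D and lowest in F, as were Slc39a6 and Slc39a10. The 9 matched B cell markers ran from 61.1 to 74.9 in Keap1_KO and from 56.0 to 72.1 in WT, with 7 of the 9 higher in Keap1_KO and the same order of the WT arrays (-0.33 in A, 0.67 in D and -1.12 in F). The 8 matched Treg markers deviated by -0.11, 0.89 and 0.71 in Keap1_KO B, C and D and by -0.61, -0.25 and -0.62 in WT A, D and F, so that, as for Mt1 and Mt2, every Keap1_KO array lay above every WT array. Their summed level ran from 94.9 to 102.9 in Keap1_KO and from 90.8 to 93.8 in WT, and 6 of the 8 had a higher mean in Keap1_KO. Of these, Itgae (2.40), Tnfrsf18 (2.35) and Tnfrsf4 (2.01), named after their values were seen, had the largest differences, and only Itgae of the 8 separated the genotypes. The 8 matched CD4 T cell genes, the identity of the cells themselves, ran from 112.9 to 120.9 in Keap1_KO and from 110.2 to 114.4 in WT, with 8 of the 8 higher in Keap1_KO, and Keap1_KO B (-0.26) lay below WT D (-0.07). Their median difference was 0.95, against 0.06 over all genes tested. At an adjusted p under 0.05, limma called 0 of the 8, and 5 had an unadjusted p under 0.05, against 10.3% of all genes. In 2 of the 8 (Lat and Thy1), every Keap1_KO array lay above every WT array, against 9.11% of all genes. The part of Treg markers and CD4 T cell genes in the values of Mt1 and Mt2, and that of other cells in the values of Slc39a6 and Slc39a10, was not tested. The 6 matched erythroid markers stayed between 40.0 and 41.3 in Keap1_KO and between 39.7 and 41.8 in WT, with 3 of the 6 higher in Keap1_KO.

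Glucocorticoids also induce metallothionein genes, and 12 genes that glucocorticoids induce in T cells were followed beside them. They deviated by -0.34, -0.12 and 0.58 in Keap1_KO B, C and D and by -0.21, 0.62 and -0.53 in WT A, D and F, and the genotypes overlapped. Their median difference was 0.09 (0.21 on centred arrays). At an adjusted p under 0.05, limma called none of the 12, and 3 had an unadjusted p under 0.05, against 10.3% of all genes. Of the 12, 7 had a higher mean in Keap1_KO, as had 9501 of all 16825 genes. Tsc22d3, the gene of the leucine zipper protein GILZ, differed by -0.04 (SE 0.43). Fkbp5, an inhibitor of the glucocorticoid receptor, differed by 0.25 (SE 0.38). Per1 (0.46, SE 0.33) and Ddit4 (0.49, SE 0.69) were highest on Keap1_KO D, as were Mt1 and Mt2, with overlapping arrays. Tsc22d3, Fkbp5, Per1 and Ddit4 were added to the names after their values were seen. Zbtb16 (-0.96) and Tgfbr3 (-0.89) had every Keap1_KO array below every WT array, as had 4.96% of all genes. Dusp1 (0.81) and Nfkbia (0.76) overlapped. None of Zbtb16, Tgfbr3, Dusp1 and Nfkbia passed the adjusted threshold in the main fit. With array weights, Tgfbr3 (limma adjusted p = 0.0414), Dusp1 (0.0445) and Nfkbia (0.0447) passed, as did 11.2% of all genes. Zbtb16 did not pass there (0.0508). The part of glucocorticoids in the values of Mt1 and Mt2 was not tested. With arrays centred or quantile normalization repeated, Zbtb16 and Tgfbr3 overlapped too.

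**Figure D5:**
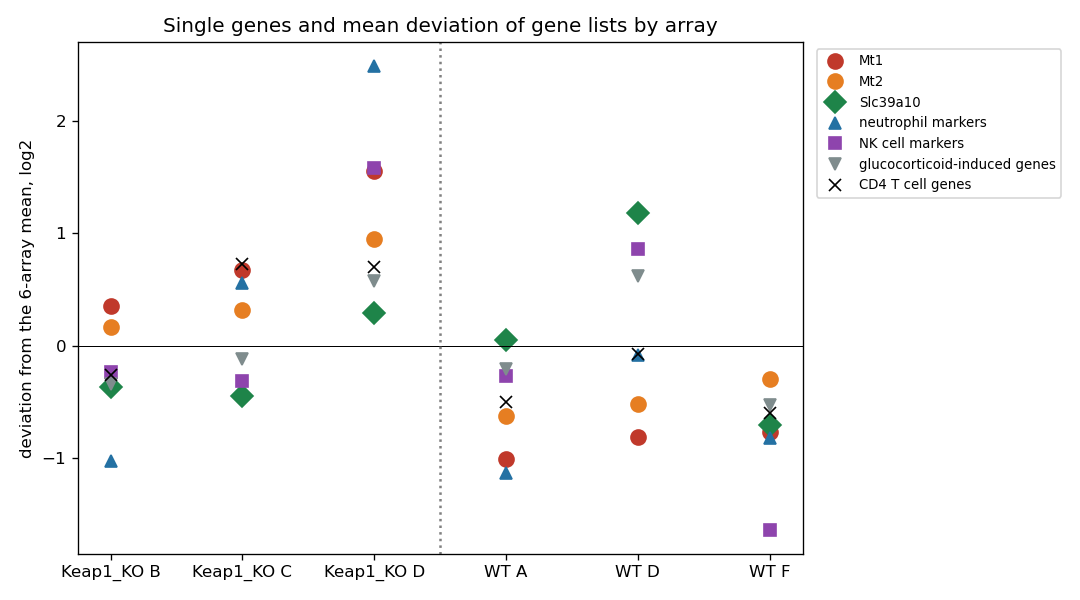
Deviation from the 6-array mean (log2) by array, Keap1_KO left of WT, for Mt1, Mt2 and Slc39a10 and as the mean over 4 gene lists. Mt1 and Mt2 are above 0 on all Keap1_KO arrays, the neutrophil markers peak on Keap1_KO D (2.49), and Slc39a10 is highest on WT D, as is the glucocorticoid-induced list (0.62), whereas the NK cell list is highest on Keap1_KO D (1.58).

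The genes whose profile over the 6 arrays lay nearest to that of Mt1 were sought among 11538 tested genes outside the group, leaving out predicted and small RNA genes. Likeness was the root mean square distance in log2 after each gene was centred on its own mean. The nearest was Ptgr1, a prostaglandin reductase gene, at 0.20, followed by Prr13 (0.24), S100a6 (0.25), Zmat5 (0.31) and Lamtor4 (0.33). Ptgr1 read 7.21, 7.60 and 8.99 in Keap1_KO B, C and D and 6.02, 6.10 and 6.19 in WT A, D and F. Mt2 stood at a distance of 0.40 from Mt1. Around Slc30a1 the nearest were Nhlrc2 (0.049), Rpl31 (0.069), St8sia1 (0.079), Cela3b (0.085) and Pip5k1a (0.091).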

How the data were processed

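RNA of 6 samples was measured on expression arrays, from 40 ng of total RNA per the labels' protocols. The authors deposited 1 log2 value for each transcript cluster on each array. RMA, Affymetrix Expression Console and Transcriptome Analysis Console appear in the submitters' processing notes without version or role. Although the series design speaks of Mouse Gene 2.0 arrays, the 65528 row identifiers are those of another Affymetrix mouse array, whose annotation gave the gene names. Deposited values reached 19.93, and 1268 clusters exceeded 16, the log2 limit of a 16-bit scanner. A rescaling that no source states may have been applied, so folds are given on the deposited scale. Array medians lay between 5.16 and 5.43. The number of arrays limits the precision. No genome build was given for the array data, and promoter coordinates are RefSeq's on the GRCm38.p6 build.

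Clusters with 1 symbol (30354) were named, with symbols updated through Entrez identifiers, and the brightest cluster passing the filter stood for a gene. The genotypes were compared in R 4.3.3 with limma 3.58.1 (lmFit, eBayes, two-sided), with Benjamini-Hochberg adjustment over 16825 genes and no covariate. The fit was tested on simulated data with independent noise for each gene and no effect shared by the genes of an array. There it called 13, 33, 39 and 47 of 50 genes shifted by 1, 2, 3 and 4 log2 units, and 9 genes that were not shifted. Genes below the filter have values from a fit without it. The group, the lists and the tests were chosen with earlier results of these data known. Named were the 9 genes, Keap1, Nfe2l2 and Nqo1, the 5 genes most like Mt1 and Slc30a1, and of each zinc, copper and glucocorticoid list the genes past the threshold, or else the 4 of largest absolute difference and all whose groups do not overlap. Cell type markers are given as lists, and single markers were named after their values were seen. Nfe2l2 averaged 9.94 ± 0.81 in Keap1_KO and 8.93 ± 0.63 in WT (SD, n = 3 each), and the arrays overlapped. Alternatives were no filter, centred arrays, repeated quantile normalization, array weights, a trended robust prior, the mean over clusters, and each array left out.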

Additional observations from a re-analysis of the deposited data

How the results depend on the processing

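Over the 12 alternatives, Mt1 differed by 1.38 to 1.97 and Mt2 by 0.72 to 1.15. Since the genotypes do not overlap for either gene, leaving out or weighting arrays could not change the sign. No filter, a trended robust prior and the mean over clusters left both differences as they were. The sign could change only under centring, given below, and repeated quantile normalization, which gave 1.78 and 1.03. Slc39a1 also separated the genotypes once each array was centred on its median, as did 2463 of 16825 genes in either direction. That centring moved the median difference of all genes to 0.17, where Mt1 and Mt2 differed by 1.83 and 1.07. The sign changed for Mtf1 under 2 alternatives, for Slc39a6 under 3 and for Slc39a10 under 1, with the values given beside them above. The number of genes called was 1880 with array weights and 1 with a trended robust prior, and with 1 array left out it ran from 0 to 569, the highest without Keap1_KO B. Called among the 9 genes were 2 with array weights and from 0 to 1 with 1 array left out, and among the other zinc genes 2 with array weights and from 0 to 1. Genes whose genotypes do not overlap numbered 2367 with all arrays, 4304 without the filter and from 2925 to 8319 with 1 array left out, where fewer arrays make separation easier. Among the 9 genes that count ran from 2 to 4. The median difference of the 9 genes ran from -0.24 without WT F to 0.22 without WT D. For Keap1 the difference ran from -0.77 to -0.54. The cause of these shifts was not tested. The sample labels do not say what the replicate letters stand for, so no paired analysis was made.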

Other observations

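Copper, the other metal that metallothioneins hold, has its own set of carriers, and 10 of the 11 matched copper handling genes passed the filter. limma called none of the 10 at an adjusted p under 0.05, and 1 had an unadjusted p under 0.05, against 10.3% of all genes. Their median difference was 0.21, and in 3 of the 10 every Keap1_KO array lay above every WT array, against 9.11% of all genes. Ccs, the gene of the chaperone that loads copper into superoxide dismutase 1, read 7.29, 10.00 and 9.78 in Keap1_KO B, C and D and 6.23, 6.35 and 6.27 in WT A, D and F. The genotypes did not overlap, by a gap of 0.94, and Keap1_KO B lay between the WT arrays and the other Keap1_KO arrays. The difference of Ccs was 2.74 (SE 0.70, limma adjusted p = 0.476, from 0.0218 without Keap1_KO B to 0.900 over 12 alternatives), and it was 3.61 without Keap1_KO B. Slc31a1, the copper importer gene of the cell surface, read 7.64, 7.66 and 7.68 in Keap1_KO B, C and D and 7.53, 7.41 and 7.13 in WT A, D and F, a difference of 0.30 (SE 0.17). Cox19, an assembly factor gene of cytochrome c oxidase, also separated the genotypes, with a difference of 0.13. Atox1, the copper chaperone gene of the secretory pathway, differed by 0.52, the pump gene Atp7a by -0.43 and Commd1 by 0.34, with overlapping arrays in each. After repeated quantile normalization, Ccs alone of the 10 separated the genotypes, against 1922 of 16825 genes in either direction.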
